A study of Mus musculus with 24 samples.

Results

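The livers of BL/6J:NZB mice, which carry the nuclear genome of C57BL/6 and the mitochondrial DNA (mtDNA) of the NZB strain, were compared with the livers of BL/6J:C57 mice, which carry the same nuclear genome with its own mtDNA. BL/6J:NZB is a conplastic line: 10 generations of backcrossing put one strain's nuclear genome on the other strain's mtDNA, so a nuclear segment of NZB origin can persist by chance or by linkage. Both lines descend from C57BL/6 and NZB mice bought from Harlan Laboratories. All mice were males of 10 weeks. From 12 males per genotype, RNA of the median liver lobe was mixed in groups of 4 animals, which gave 3 BL/6J:NZB pools and 3 BL/6J:C57 pools. These 6 libraries were picked by their labels, with earlier results of these data known. They are part of a series of 24, whose other libraries are the hearts of the same genotypes and the livers and hearts of mice with the NZB nuclear genome. A pool averages 4 animals, so the spread between pools, which every p-value below measures, is smaller than the spread between mice, and a single animal with extreme values moves its whole pool.

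A mitochondrion is built from 2 genomes. The mtDNA encodes a small set of core subunits of the respiratory chain and the ribosomal and transfer RNAs needed to make them, while all other mitochondrial proteins, including those of the mitochondrial ribosome, are encoded in the nucleus and imported. Hepatocytes are rich in mitochondria, run urea, bile acid and lipid metabolism, and secrete most plasma proteins, among them the acute phase proteins that interleukin 6 and NF-kappa B switch on during inflammation. Transcripts of the mtDNA itself were not analysed here, and the results concern nuclear genes.

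In these livers, 1 gene of 13159 tested passed the test. Gm13340, a nuclear copy of an mtDNA gene, rose in BL/6J:NZB livers. Beside it, every BL/6J:NZB pool stood below every BL/6J:C57 pool for 25 of 35 acute phase genes, and above every BL/6J:C57 pool for 10 of 16 stellate cell markers and 11 of 29 extracellular matrix genes, yet none of these genes passed the test over all genes. These lists, and all gene lists below, were chosen with earlier results of these data known, so their counts are descriptions. The lists of nuclear respiratory chain genes had median log2 fold changes between -0.20 and -0.11, which lay between -0.08 and -0.02 without BL/6J:C57 pool 1 and between -0.31 and -0.14 without pool 3. How many genes passed depended on a single library: with BL/6J:C57 pool 3 left out, 196 genes passed.

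Values are the authors' normalised read counts, and a log2 fold change is the difference of mean log2(value + 1) between BL/6J:NZB and BL/6J:C57 pools, so a positive one means higher in BL/6J:NZB. A gene was called where limma's p-value, adjusted over all genes tested by the method of Benjamini and Hochberg, was under 0.05. Across all genes this held for 0.0076% (1 of 13159). An unadjusted p under 0.05 was reached by 627 genes that were higher (4.76%) and 657 that were lower (4.99%) in BL/6J:NZB pools, 1284 in both directions (9.76%). All 3 BL/6J:NZB pools stood above all 3 BL/6J:C57 pools for 669 genes (5.08%), and below them for 917 (6.97%). Counts of list members below are to be read beside these shares.

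The labels were checked against the data. Of the 6 libraries, the shallowest held 14225044 reads and the deepest 34974268. The hepatocyte markers dominated every pool, with summed values of 134190 to 143810 in BL/6J:NZB pools and 140940 to 148690 in BL/6J:C57 pools. The 12 cardiomyocyte markers summed to between 0.653 and 1.15 in BL/6J:NZB pools and between 0.358 and 0.440 in BL/6J:C57 pools, and the defining markers Myh7, Nppa, Nppb and Mb were at 0 in all 6 pools. Yet 11 of the 12 reached a value of 1 in 3 or more of the 12 livers used for the spread. Some livers with the NZB nuclear genome thus held more of them, and the reason was not tested. A fit on only the 6 BL/6J livers also called 1 gene by limma. The nuclear genome was checked with 46 genes on 18 chromosomes. Their hearts differed by a log2 value of at least 3 without overlap between NZB:NZB and BL/6J:C57 mice. Their livers differed by at least 3 in the same direction. On a scale where BL/6J:C57 is 0 and NZB:NZB is 1, the median position of BL/6J:NZB livers was 0, and Gm13340, at 0.882, was the only gene of the 46 above 0.5. The ribosomal protein gene Rps2, for example, averaged 473.6 in BL/6J:NZB livers, against 2.77 in NZB:NZB and 479.4 in BL/6J:C57 livers. Its processed pseudogene Rps2-ps13 went the other way, averaging 0.124 in BL/6J:NZB, 397.5 in NZB:NZB and 0.037 in BL/6J:C57 livers. Many of the 46 genes are pseudogenes, and reads of a gene and its copies may be divided between them. These values serve here as marks of the nuclear genome, and the part of read alignment in them was not tested. Mmrn1 (multimerin 1), which is deleted in the C57BL/6JOlaHsd substrain sold by Harlan, was at 0 in all BL/6J:NZB and BL/6J:C57 livers and hearts, while it averaged 4.89 in NZB:NZB hearts. Nnt, which encodes the mitochondrial transhydrogenase and is truncated in the C57BL/6J substrain, stood at 156, 160.4 and 155 in BL/6J:NZB pools and 142, 143 and 152 in BL/6J:C57 pools. The groups did not overlap for Nnt, and the difference did not pass the test (log2 fold change 0.11, adjusted p = 0.629, limma). Cox7a2l, a respiratory supercomplex assembly factor whose allele differs between C57BL/6 and several other strains, averaged 116.7 ± 3.35 in BL/6J:NZB livers and 115.1 ± 6.13 in BL/6J:C57 livers (SD, n = 3 each), and the groups overlapped (log2 fold change 0.02, adjusted p = 0.946).

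The 6 livers did not part cleanly by genotype. On the first principal component, which held 41.2% of their variance, the BL/6J:NZB pools stood at -12, -16.6 and -7.3, and the BL/6J:C57 pools at 31.9, 17.4 and -13.5, so BL/6J:C57 pool 3 lay among the BL/6J:NZB pools. BL/6J:C57 pool 1 was the pool farthest from them, and it was nearest of the 3 to the BL/6J:NZB mean for only 23.3% of genes, against 36.4% for pool 2 and 40.4% for pool 3. Gene length moved with the fold changes and differed by pool. The median log2 fold change was -0.17 over 679 genes with transcripts under 1 kb and 0.12 over 1693 genes of 6 kb or more, and Spearman's rho between length and fold change across 12243 genes was 0.38, or 0.19 without BL/6J:C57 pool 1. In that pool the longest genes stood 0.46 below the shortest on the log2 scale relative to the mean of the 6 livers, while the same difference was -0.09 in BL/6J:C57 pool 2, 0.13 in BL/6J:C57 pool 3 and 0.01 to 0.25 in BL/6J:NZB pools, so BL/6J:C57 pool 3 lay within the range of BL/6J:NZB pools. The part of length in the differences below was not tested. The inflammatory lists had their highest values in BL/6J:C57 pool 2. The map of lists by pool shows these 3 axes side by side.

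**Figure D1:**
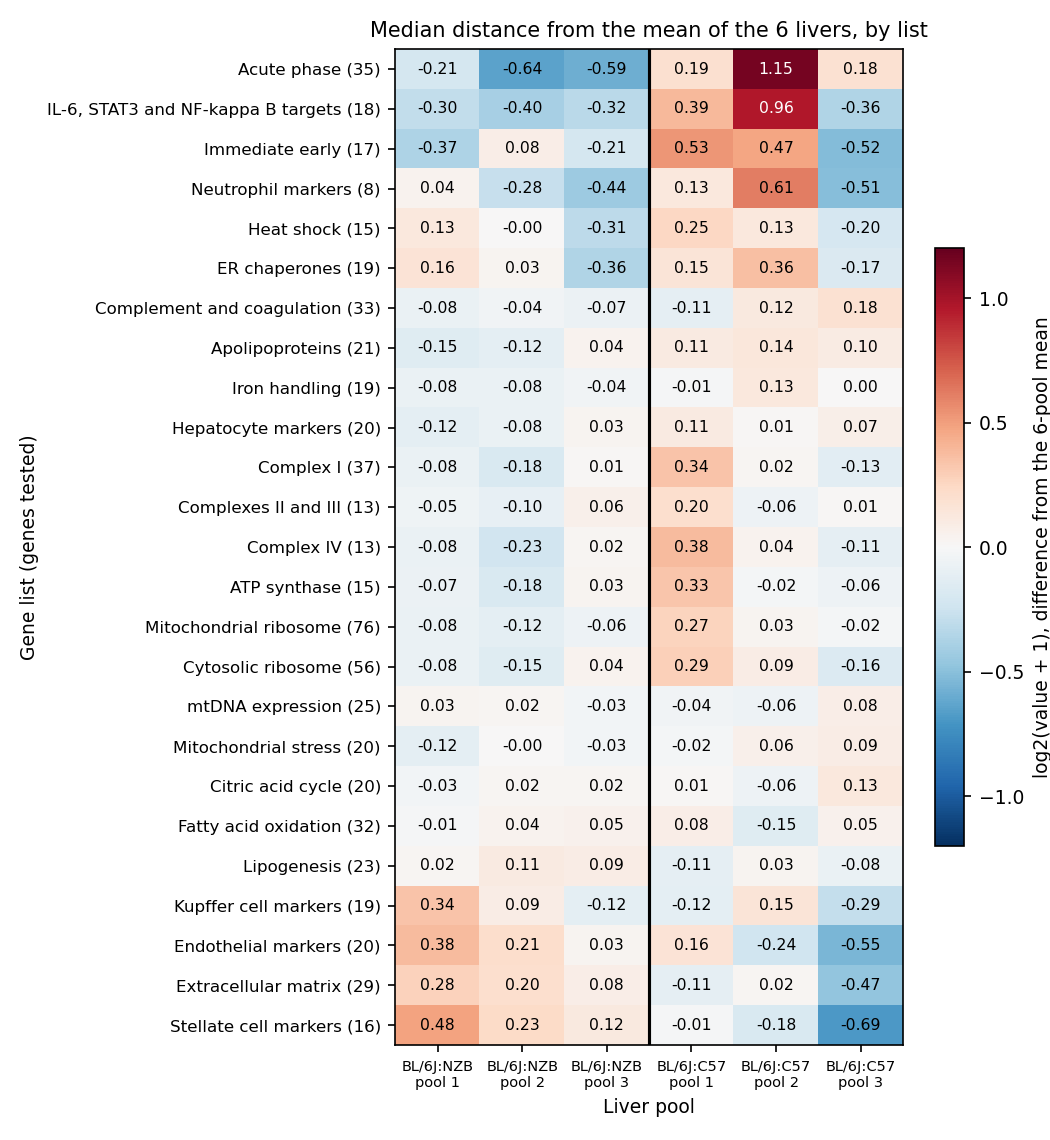
Median over the genes of each list (rows, number of genes tested in brackets) of log2(value + 1) minus that gene's mean over the 6 livers, for each pool (columns; BL/6J:NZB pools left, BL/6J:C57 pools right). Acute phase genes stand at -0.64 to -0.21 in BL/6J:NZB pools and at 0.18 to 1.15 in BL/6J:C57 pools, while the respiratory complexes are high mainly in BL/6J:C57 pool 1 and the stellate cell markers are lowest in BL/6J:C57 pool 3.

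Gm13340 lies on chromosome 2 (22588103 to 22589647, minus strand, GRCm38) and is annotated as an unprocessed pseudogene. It is a copy in the nuclear genome of mt-Co1, the mtDNA gene for subunit 1 of cytochrome c oxidase. Over its 1545 bases, 37 differ from the reference mt-Co1, an identity of 97.6%, and 685 of its 1515 words of 31 bases (45.2%) also occur in mt-Co1. The longest run without a difference is 148 bases. Reads from a stretch with differences tell the copy from the reference mt-Co1. The mt-Co1 of NZB mtDNA was not compared, so whether they tell the copy from that sequence was not tested. Below is the stretch of 120 bases in which the copy differs most from the reference mt-Co1, with the 6 differing bases in capitals (sequence of the GENCODE vM21 transcript, chr2:22588355-22588474, minus strand).
Gm13340: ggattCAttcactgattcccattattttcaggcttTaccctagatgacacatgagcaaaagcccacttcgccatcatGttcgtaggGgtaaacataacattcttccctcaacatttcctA

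Gm13340 had values of 25.2, 9.28 and 8.42 in BL/6J:NZB pools, against 0.529, 0.725 and 0.438 in BL/6J:C57 pools. These rest on 495 and 30 reads over the 3 pools of each group. The lowest BL/6J:NZB pool stood above the highest BL/6J:C57 pool, and pool 1 was the highest of the BL/6J:NZB pools. The gene rose by a log2 fold change of 3.13 (SE 0.34, adjusted p = 0.00433, limma), and it was also called by edgeR's quasi-likelihood test on the recovered reads (adjusted p = 0.0042). It was not called with a pseudocount of 5 (log2 fold change 1.69). In hearts with the same nuclear genome it averaged 92.2 ± 23.2 (SD, n = 3) with NZB mtDNA and 1.33 ± 0.209 with C57 mtDNA. With the NZB nuclear genome its liver mean was 11.7 ± 4.49 with C57 mtDNA and 17.2 ± 1.23 with NZB mtDNA. BL/6J:C57 livers and hearts were thus the 2 groups with the lowest levels. Because of the shared sequence, reads of mt-Co1 and of Gm13340 may be divided between them, and the part of either in this value was not tested.

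**Figure D2:**
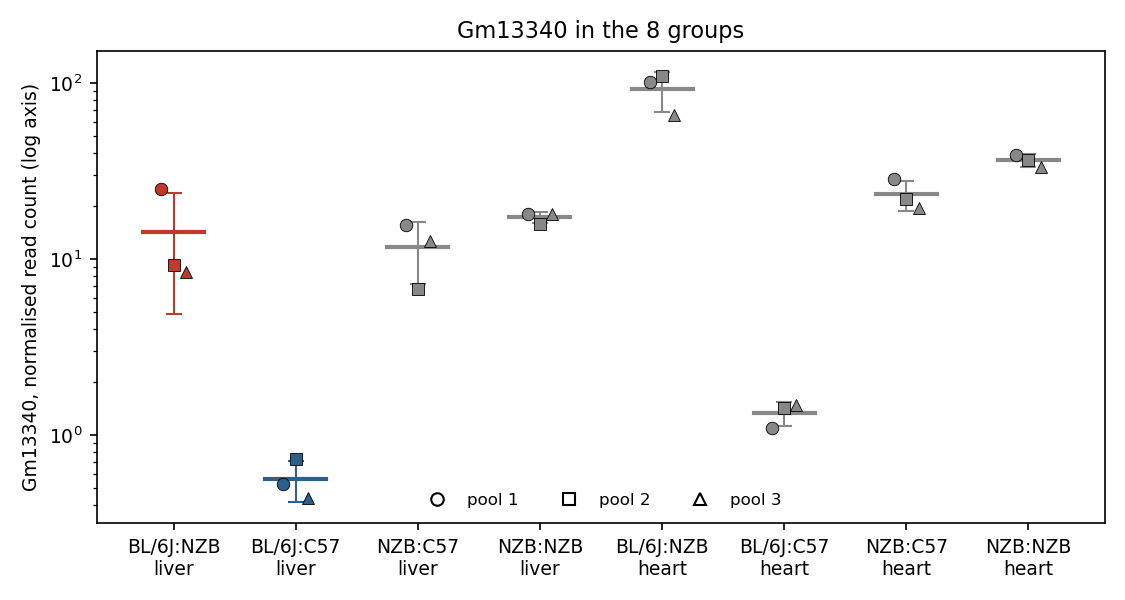
Normalised read count of Gm13340 (log axis) in the 8 groups, with BL/6J:NZB livers in red and BL/6J:C57 livers in blue; symbols are pools, horizontal lines are means and bars are SD (n = 3 pools). The BL/6J:NZB liver and heart pools lie at 8.42 or more, as against at most 1.48 in the BL/6J:C57 liver and heart pools.

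The acute phase genes, which encode plasma proteins that the liver secretes in inflammation, stood lower in BL/6J:NZB livers. Of 35 members tested, 25 had every BL/6J:NZB pool below every BL/6J:C57 pool and 0 had them above, beside 6.97% and 5.08% of all genes. Their median log2 fold change was -1.01, against -0.01 over all genes tested. By limma, 0 of 35 passed over all genes, while 25 were lower and 0 higher at an unadjusted p under 0.05, and DESeq2 called 1. Without BL/6J:C57 pool 1, 2 or 3 the median was -1.12, -0.61 and -1.23, and the count below was 30, 26 and 28, beside 11.0%, 11.1% and 18.6% of all genes.

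Saa1 and Saa2 are the serum amyloid A genes of the liver. Saa1 stood at 741, 140.0 and 166 in BL/6J:NZB pools, against 1587, 7940.5 and 1276 in BL/6J:C57 pools. Saa2 stood at 572, 53.4 and 62.5 in BL/6J:NZB pools, against 992, 8142 and 852 in BL/6J:C57 pools. BL/6J:C57 pool 2 was the highest of all 6 for both, and BL/6J:NZB pool 1 the highest of its group. Their log2 fold changes were -3.28 (SE 1.01, adjusted p = 0.377) and -3.92 (SE 1.29, adjusted p = 0.397, limma). Saa1 and Saa2 share 46.8% and 44.5% of their 31-base words with each other, so reads may be divided between them. Saa3, which macrophages also make, shares little sequence with them and had the smallest SE of the 3. It stood at 6.44, 4.47 and 4.1 in BL/6J:NZB pools and 13.2, 88.5 and 22.8 in BL/6J:C57 pools (log2 fold change -2.40, SE 0.56, adjusted p = 0.222, limma); DESeq2 called it (adjusted p = 0.0134).

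Lcn2, lipocalin 2, which binds bacterial siderophores and so withholds iron, stood at 42.7, 6.27 and 8.93 in BL/6J:NZB pools and 114, 1200.5 and 79.2 in BL/6J:C57 pools (log2 fold change -3.93, SE 1.10, adjusted p = 0.333, limma). Orm2, one of the genes for the plasma carrier alpha-1-acid glycoprotein, stood at 39.5, 16.1 and 16 in BL/6J:NZB pools and 179, 691 and 83.9 in BL/6J:C57 pools. Its neighbour Orm3 stood at 3.17, 1.29 and 3.24 in BL/6J:NZB pools and 15.9, 36.3 and 4.7 in BL/6J:C57 pools. At Orm3, BL/6J:C57 pool 3 came close to the highest BL/6J:NZB pool. Steap4, a metalloreductase of iron and copper, stood at 218, 104 and 117 in BL/6J:NZB pools and 299, 1538 and 253 in BL/6J:C57 pools. Mt1, metallothionein 1, which binds zinc and copper, stood at 9.79, 4.04 and 8.35 in BL/6J:NZB pools and 24.8, 357 and 14.6 in BL/6J:C57 pools. In each of these 5 genes BL/6J:C57 pool 2 was the highest of its group, and pool 3 was the nearest to the BL/6J:NZB pools.

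Among the abundant plasma proteins, Hp (haptoglobin, which binds free haemoglobin) stood at 4368, 3322 and 3689 in BL/6J:NZB pools and 7773, 12385 and 5852 in BL/6J:C57 pools (log2 fold change -1.13, SE 0.31, adjusted p = 0.329, limma). Hpx, hemopexin, the plasma carrier of haem, also stood at 6271, 4966 and 5104 in BL/6J:NZB pools and 8766, 16077 and 9136 in BL/6J:C57 pools (log2 fold change -1.01, adjusted p = 0.373). Fgl1, a fibrinogen-like protein secreted by hepatocytes, stood at 492, 333 and 297 in BL/6J:NZB pools and 672, 1137 and 619 in BL/6J:C57 pools (log2 fold change -1.09, adjusted p = 0.333). Their BL/6J:C57 pools 1 and 3 differed less from the BL/6J:NZB pools than pool 2 did. Ifitm3, an interferon-induced membrane protein, had a small and even difference, at 500.3, 442 and 518 in BL/6J:NZB pools and 645, 622 and 592 in BL/6J:C57 pools (log2 fold change -0.35, SE 0.09, adjusted p = 0.312). Neutrophil markers moved with these genes in 1 pool: the 9 in the table summed to 20.9, 16.2 and 11.8 in BL/6J:NZB pools and to 23.0, 46.8 and 10.9 in BL/6J:C57 pools, with S100a8 and S100a9 highest in BL/6J:C57 pool 2. Their part in the acute phase difference was not tested. Here and below, in a bulk sample fewer cells of a type and less RNA per cell cannot be told apart.

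**Figure D3:**
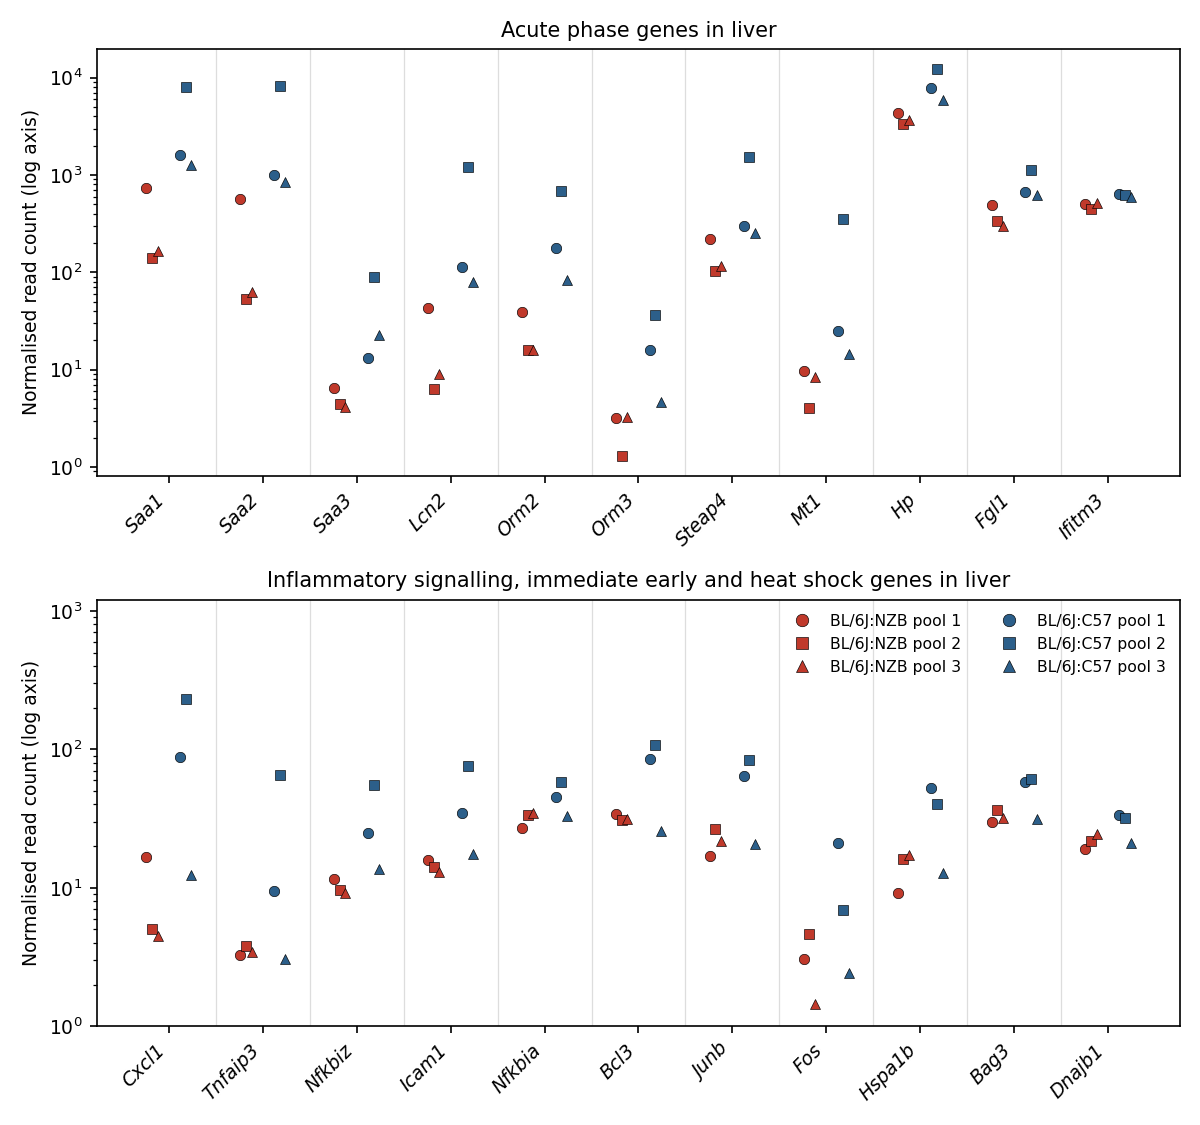
Normalised read counts (log axes) of acute phase genes (top) and of inflammatory signalling, immediate early and heat shock genes (bottom) in the 3 BL/6J:NZB pools (red, left of each pair) and the 3 BL/6J:C57 pools (blue, right). For Saa1 and Lcn2 all red points lie below all blue points, while for Bcl3 and Hspa1b BL/6J:C57 pool 3 (triangle) lies among or below the red points.

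The list of inflammatory signalling genes differed from the acute phase list mainly in BL/6J:C57 pool 3. That pool's median difference from the mean of the 6 livers was 0.18 for acute phase genes and -0.36 here. The list of interleukin 6, STAT3 and NF-kappa B response genes had a median log2 fold change of -0.60 over 18 members tested, and 2 of them, beside 6.97% of all genes, had every BL/6J:NZB pool below every BL/6J:C57 pool. By limma 0 of 18 passed, with 10 lower and 0 higher at an unadjusted p under 0.05, and DESeq2 called 0. In most members BL/6J:C57 pools 1 and 2 were high and pool 3 was level with BL/6J:NZB pools. The medians per pool were -0.30, -0.40 and -0.32 in BL/6J:NZB pools, and 0.39, 0.96 and -0.36 in BL/6J:C57 pools, as differences from the mean of the 6 livers. When BL/6J:C57 pool 3 was left out, 8 of the 18 passed and all 8 were lower, beside 0.784% of all genes called lower in that fit. The count below without overlap was then 13, beside 18.6% of all genes, and the median -1.09. Without BL/6J:C57 pool 1 or 2 the median was -0.52 or -0.33. The count below was then 3 or 2, beside 11.0% or 11.1% of all genes. Without pool 2, 1 member stood above, beside 7.68% of all genes.

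To show the sequence that NF-kappa B response genes are known for, the promoters of the 54 members of the acute phase and signalling lists were searched for GGGANNTTC, the core of a kappa B site, on both strands within 250 bases upstream of the start (RefSeq, GRCm38.p6). Of the 41 members with a promoter in the table, 5 held it (12.2%), against 1061 of 32851 promoters (3.2%). This word was chosen after a longer form, the same word followed by 1 more C, had been searched and its result seen; the longer form was in 4 of the 41 members (9.8%), the same without Fgb, against 397 of 32851 promoters (1.2%). The word TTCNNNGAA, the core of a STAT site, was in 9 of 41 (22.0%), against 2306 of all promoters (7.0%); the words were searched separately and may overlap. For all of these words, members were counted as genes and the background as promoters. A gene may have several promoters, so the shares of members and of promoters have different units and cannot be compared directly. How far this raises the shares of members was not tested. A match is a description of the letters and says nothing of binding in these livers. The promoters with the kappa B word are shown for 100 bases each, on the gene's strand, with the word in capitals (on the other strand it reads GAANNTCCC, and in Cxcl1 a word of each strand overlap).
Cxcl1 (chr5:90891131-90891230, plus strand): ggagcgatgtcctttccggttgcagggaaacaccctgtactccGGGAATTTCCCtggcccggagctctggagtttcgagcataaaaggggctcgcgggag
Cxcl10 (chr5:92348994-92349093, minus strand): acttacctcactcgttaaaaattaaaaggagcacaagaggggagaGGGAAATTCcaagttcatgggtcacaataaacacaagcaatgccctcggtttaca
Fgb (chr3:83050010-83050109, minus strand): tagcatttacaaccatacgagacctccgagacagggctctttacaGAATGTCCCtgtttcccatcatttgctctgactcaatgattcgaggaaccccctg
Ifitm3 (chr7:141010805-141010904, minus strand): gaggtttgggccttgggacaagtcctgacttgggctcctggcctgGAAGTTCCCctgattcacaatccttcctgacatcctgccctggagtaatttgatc
Nfkbia (chr12:55492648-55492747, minus strand): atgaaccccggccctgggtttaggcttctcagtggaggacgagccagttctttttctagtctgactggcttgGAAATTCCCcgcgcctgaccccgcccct

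Cxcl1, a neutrophil-attracting chemokine that is counted in the acute phase list, stood at 16.6, 5.07 and 4.46 in BL/6J:NZB pools and 87.8, 233 and 12.4 in BL/6J:C57 pools (log2 fold change -2.97, SE 0.92, adjusted p = 0.382, limma). Its groups overlapped through BL/6J:C57 pool 3, and without that pool the log2 fold change was -4.11 (adjusted p = 0.0354). Cxcl10, a T cell chemokine induced by interferon and NF-kappa B, was chosen after its values were seen, since its promoter is shown. It stood at 6.44, 5.5 and 4.82 in BL/6J:NZB pools and 12.5, 13.4 and 5.53 in BL/6J:C57 pools. Nfkbia, which encodes the inhibitor that holds NF-kappa B in the cytoplasm and is itself an NF-kappa B target, stood at 27.1, 33.3 and 34.7 in BL/6J:NZB pools and 45.1, 58.5 and 33.2 in BL/6J:C57 pools (log2 fold change -0.48, adjusted p = 0.429). For Cxcl10 and Nfkbia too, BL/6J:C57 pools 1 and 2 were above every BL/6J:NZB pool and pool 3 was within their range. Fgb, the beta chain of fibrinogen, also chosen for its promoter, stood at 6042, 5585 and 5543 in BL/6J:NZB pools and 6486, 9597 and 8314 in BL/6J:C57 pools.

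Nfkbiz, a nuclear co-activator of NF-kappa B, and Icam1, a leukocyte adhesion molecule, were the 2 members whose groups did not overlap. Nfkbiz stood at 11.6, 9.71 and 9.14 in BL/6J:NZB pools and 24.9, 55.3 and 13.6 in BL/6J:C57 pools (log2 fold change -1.32, SE 0.38, adjusted p = 0.357, limma). Icam1 stood at 15.9, 14.2 and 13 in BL/6J:NZB pools and 34.4, 76 and 17.5 in BL/6J:C57 pools (log2 fold change -1.27, SE 0.39, adjusted p = 0.377). Tnfaip3, the ubiquitin-editing enzyme A20 that ends NF-kappa B signalling, stood at 3.26, 3.78 and 3.46 in BL/6J:NZB pools and 9.43, 65.8 and 3.07 in BL/6J:C57 pools. Bcl3, an atypical member of the inhibitor family, stood at 34.2, 31 and 31.2 in BL/6J:NZB pools and 85.1, 108 and 25.7 in BL/6J:C57 pools. For Tnfaip3 and Bcl3, BL/6J:C57 pool 3 was the lowest of all 6. With BL/6J:C57 pools 1 and 2 left out, their log2 fold changes were 0.14 and 0.31, against -1.65 and -0.93 with all pools, so the direction rests on those 2 pools. Socs3, the feedback inhibitor of STAT3, likewise chosen after its values were seen, stood at 13.1, 7.48 and 21.7 in BL/6J:NZB pools and 25.1, 57.2 and 14.7 in BL/6J:C57 pools, and the groups overlapped.

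Immediate early and heat shock genes answer stress within minutes. The immediate early list followed the same pools, while of the heat shock list only some genes did. The medians per pool of the heat shock list were 0.13, 0 and -0.31 in BL/6J:NZB pools, as differences from the mean of the 6 livers. They were 0.25, 0.13 and -0.20 in BL/6J:C57 pools, so BL/6J:NZB pool 1 was level with BL/6J:C57 pool 2. The immediate early list had a median log2 fold change of -0.39 over 17 members, or -0.82 without BL/6J:C57 pool 3 and -0.10 without pool 2. With all pools 0 of the 17 were without overlap, and without pool 3 every BL/6J:NZB pool was below for 13, beside 18.6% of all genes. Junb, an AP-1 subunit, stood at 16.9, 26.4 and 21.8 in BL/6J:NZB pools and 64.1, 83.6 and 20.9 in BL/6J:C57 pools, and Fos, its partner, at 3.08, 4.64 and 1.44 in BL/6J:NZB pools and 21.1, 6.86 and 2.43 in BL/6J:C57 pools. Zfp36, which speeds the decay of cytokine mRNAs, stood at 65.2, 95.6 and 55.7 in BL/6J:NZB pools and 140.2, 121 and 75.7 in BL/6J:C57 pools. Of the 15 heat shock genes tested, 1 had groups that did not overlap, and the median log2 fold change was -0.08. Without BL/6J:C57 pool 3 the count below was 6, beside 18.6% of all genes, and the median -0.20. Hspa1b, the inducible HSP70, stood at 9.23, 16.2 and 17.1 in BL/6J:NZB pools and 52.2, 40.4 and 12.7 in BL/6J:C57 pools; it shares 68.0% of its words with Hspa1a. Bag3, a co-chaperone of HSP70, stood at 29.7, 36.6 and 32.2 in BL/6J:NZB pools and 58.1, 61.4 and 31.2 in BL/6J:C57 pools. Dnajb1, an HSP40, stood at 19.2, 21.7 and 24.3 in BL/6J:NZB pools and 33.3, 32.1 and 21 in BL/6J:C57 pools. In all 6 of these genes, BL/6J:C57 pools 1 and 2 were above, and pool 3 within, the range of BL/6J:NZB pools. Without pool 3 limma called 1 immediate early gene (Junb, which is also in the signalling list) and 4 heat shock genes, all lower, and without pools 1 and 2 Junb and Hspa1b had log2 fold changes of 0.03 and 0.1. Of the endoplasmic reticulum chaperone list, Herpud1, which takes part in the degradation of misfolded proteins, stood at 238, 264 and 274 in BL/6J:NZB pools and 381, 580.1 and 285 in BL/6J:C57 pools (log2 fold change -0.62, adjusted p = 0.382), and the list's median was -0.14 over 19 members. With all pools 1 of the 19 stood below without overlap. Without BL/6J:C57 pool 3 it was 8, beside 18.6% of all genes, with a median of -0.32.

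Stellate cell, matrix and endothelial lists had positive median log2 fold changes, although 0 of their genes passed limma's test over all genes with all pools. For stellate cells, which store vitamin A and make matrix, 10 of 16 markers tested had every BL/6J:NZB pool above every BL/6J:C57 pool, beside 5.08% of all genes, and 0 had them below. Their median log2 fold change was 0.59, 11 of 16 were higher at an unadjusted p under 0.05, and DESeq2 called 6, beside 0.651% of all genes. Of 29 extracellular matrix genes, 11 stood above without overlap, with a median of 0.39 and 5 called by DESeq2. Of 20 endothelial markers, 5 did, with a median of 0.38 and 2 called by DESeq2. Without BL/6J:C57 pool 1 the endothelial count was 16, beside 8.88% of all genes, and the median 0.61. The endothelial count was 5 without pool 2 or pool 3, beside 7.68% and 17.1% of all genes. Of 19 Kupffer cell and macrophage markers, 1 stood above, a share near that of all genes, with a median of 0.18. Without BL/6J:C57 pool 2 it was 8, beside 7.68% of all genes, and the median 0.30. Without pool 3 it was 1 above and 2 below, beside 17.1% and 18.6% of all genes, and the median 0.08. Some genes, such as Dcn and Lum, are in both the stellate and the matrix list. These lists differed by pool in a graded way: the stellate markers had medians of 0.48, 0.23 and 0.12 in BL/6J:NZB pools and of -0.01, -0.18 and -0.69 in BL/6J:C57 pools. Their count without overlap was 14 without BL/6J:C57 pool 1 and 11 without pool 2, beside 8.88% and 7.68% of all genes. With pool 3, the lowest of them, left out, their median was 0.40 and the count 10, beside 17.1% of all genes, and limma called 3, all higher; the endothelial and matrix medians were then 0.23 and 0.19. The summed values ran from 355 to 505 in BL/6J:NZB pools and from 182 to 344 in BL/6J:C57 pools for stellate markers, and from 441 to 589 in BL/6J:NZB pools and from 281 to 480 in BL/6J:C57 pools for endothelial markers. For matrix genes they ran from 2673.8 to 3172.2 in BL/6J:NZB pools and from 2437.9 to 3086.9 in BL/6J:C57 pools. The endothelial and matrix sums thus overlapped between groups. The median transcript length was 3457 bases for the stellate, 5784 for the matrix and 4114.5 for the endothelial genes tested, against 3293 over all genes.

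Reln, reelin, a secreted glycoprotein made in liver by stellate cells, stood at 47.5, 40.04 and 33.3 in BL/6J:NZB pools and 21, 20.4 and 16.6 in BL/6J:C57 pools (log2 fold change 1.02, SE 0.19, adjusted p = 0.147, limma). DESeq2 called it (adjusted p = 3.45e-05), and the lowest BL/6J:NZB pool was well above the highest BL/6J:C57 pool. Colec10, collectin 10, a lectin of the complement system, stood at 29.8, 21.8 and 15.2 in BL/6J:NZB pools and 9.95, 8.42 and 7.64 in BL/6J:C57 pools (log2 fold change 1.22, SE 0.23, adjusted p = 0.147). DESeq2 gave it an adjusted p of 3.45e-05. Hgf, the hepatocyte growth factor that stellate cells supply to hepatocytes, stood at 6.25, 5.5 and 2.81 in BL/6J:NZB pools and 0.793, 1.39 and 1.31 in BL/6J:C57 pools (log2 fold change 1.39, SE 0.28, adjusted p = 0.164). With BL/6J:C57 pool 3 left out, limma called these 3 markers and no other of the list, with adjusted p of 0.0475, 0.0476 and 0.0475. Lrat, which esterifies retinol for storage, stood at 33.3, 15 and 13.5 in BL/6J:NZB pools and 8.46, 11.7 and 6.33 in BL/6J:C57 pools, with BL/6J:NZB pool 1 far above the other 5. Rgs5, a regulator of G protein signalling in pericytes, stood at 39.5, 26.9 and 22.3 in BL/6J:NZB pools and 17.2, 18.6 and 13 in BL/6J:C57 pools (log2 fold change 0.80, adjusted p = 0.222).

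Among matrix genes, Col14a1, a collagen that associates with fibrils, stood at 53.9, 47.5 and 37.6 in BL/6J:NZB pools and 29.5, 28.8 and 18.6 in BL/6J:C57 pools (log2 fold change 0.84, SE 0.19, adjusted p = 0.222, limma). Lum, the proteoglycan lumican, stood at 9.79, 6.62 and 6.19 in BL/6J:NZB pools and 4.85, 3.96 and 3.86 in BL/6J:C57 pools. The basement membrane genes Nid1 (nidogen 1) and Lamb1 (laminin beta 1) were similar: Nid1 stood at 18.6, 14.7 and 12.1 in BL/6J:NZB pools and 10.1, 9.59 and 6.45 in BL/6J:C57 pools, and Lamb1 at 8.86, 7.3 and 7.99 in BL/6J:NZB pools and 5.37, 4.02 and 4.02 in BL/6J:C57 pools. All 4 had adjusted p-values between 0.222 and 0.226. In each, BL/6J:C57 pool 3 was the lowest of the 6 or level with the lowest. Among endothelial markers, Kdr, the main receptor of vascular endothelial growth factor, stood at 55.8, 36.6 and 30.3 in BL/6J:NZB pools and 27.8, 19.5 and 19.9 in BL/6J:C57 pools (log2 fold change 0.81, SE 0.19, adjusted p = 0.222). Tek, the angiopoietin receptor, stood at 15.1, 13.4 and 9.36 in BL/6J:NZB pools and 9.34, 6.3 and 5.29 in BL/6J:C57 pools, and Cdh5, the cadherin of endothelial junctions, at 27.7, 24.1 and 18.3 in BL/6J:NZB pools and 16.6, 16 and 11.9 in BL/6J:C57 pools. Ptprb, a vascular phosphatase, stood at 92.8, 68.3 and 46.1 in BL/6J:NZB pools and 47.1, 33.1 and 30.9 in BL/6J:C57 pools, and BL/6J:C57 pool 1 exceeded BL/6J:NZB pool 3. Of the macrophage markers, Mrc1, the mannose receptor shared by Kupffer and sinusoidal endothelial cells, was the 1 without overlap, at 59.5, 41.2 and 34.8 in BL/6J:NZB pools and 31.2, 23.9 and 23.6 in BL/6J:C57 pools. Adgre1, which encodes F4/80, stood at 28.6, 21.9 and 13.4 in BL/6J:NZB pools and 6.87, 14.7 and 10.3 in BL/6J:C57 pools, and Clec4f, the marker most particular to Kupffer cells, at 119, 97.1 and 84.5 in BL/6J:NZB pools and 84.2, 93.4 and 74.7 in BL/6J:C57 pools. For both, the groups overlapped.

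**Figure D4:**
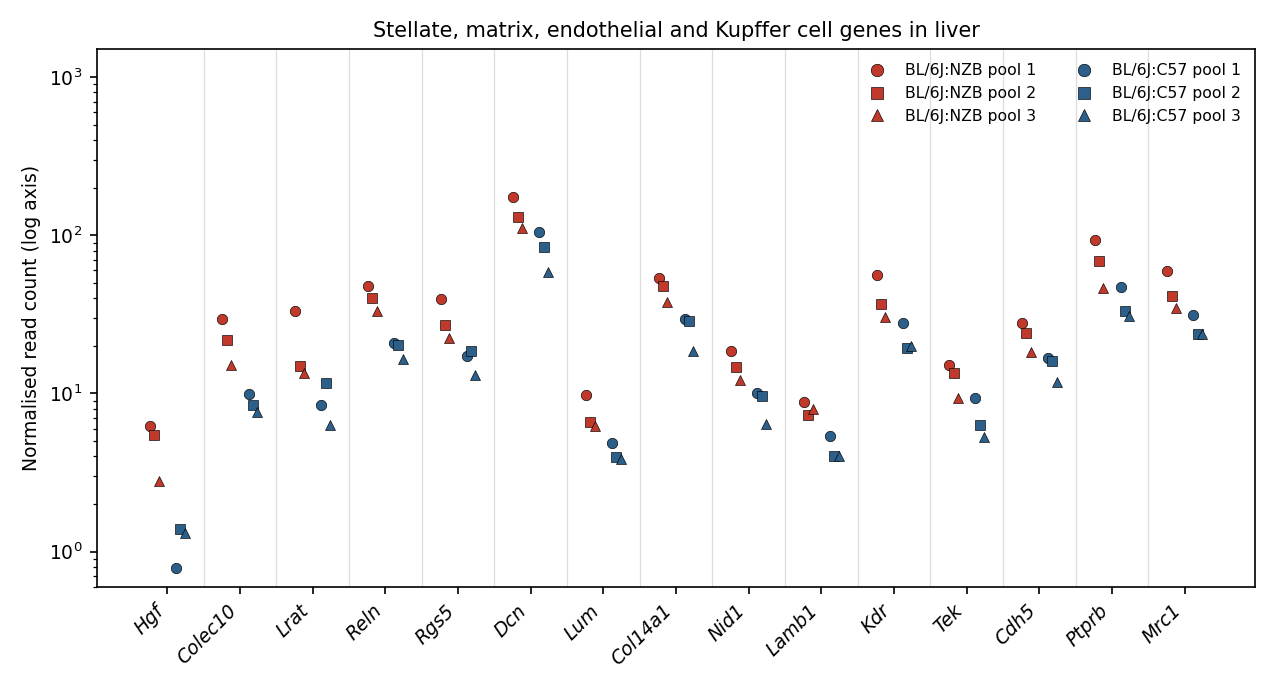
Normalised read counts (log axis) of stellate cell, matrix, endothelial and Kupffer cell genes in the 3 BL/6J:NZB pools (red, left of each pair) and the 3 BL/6J:C57 pools (blue, right). All red points lie above all blue points for every gene shown except Ptprb, and BL/6J:NZB pool 1 is the highest of the 6 for each of them.

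Of genes with a mean of at least 10 whose groups did not overlap, 10 had the highest log2 fold changes; Reln, Colec10 and Lrat are among them. Vipr1, a receptor of vasoactive intestinal peptide, had the smallest p-value of these, at 27.1, 26.9 and 23.1 in BL/6J:NZB pools and 16, 12.8 and 10.3 in BL/6J:C57 pools (log2 fold change 0.94, SE 0.15, adjusted p = 0.105, limma; DESeq2 adjusted p = 3.45e-05). Plxnc1, a semaphorin receptor, stood at 27.4, 18.6 and 15.5 in BL/6J:NZB pools and 11.7, 8.87 and 7.96 in BL/6J:C57 pools (log2 fold change 1.01, adjusted p = 0.147). Rnf125, a ubiquitin ligase that acts on the RNA sensor RIG-I, stood at 201, 231 and 119.8 in BL/6J:NZB pools and 51.2, 78.3 and 98.5 in BL/6J:C57 pools (log2 fold change 1.26, adjusted p = 0.147); 19.8% of its words occur in a predicted gene. F8, coagulation factor VIII, made by sinusoidal endothelium, stood at 24.8, 14.7 and 9.07 in BL/6J:NZB pools and 6.08, 6.64 and 8.6 in BL/6J:C57 pools. The other 3 were low above all in BL/6J:C57 pool 1: Foxn3, a forkhead repressor, at 18.5, 24.2 and 21.5 in BL/6J:NZB pools and 6.17, 11 and 17 in BL/6J:C57 pools; Lnpep, an aminopeptidase that travels with the glucose transporter GLUT4, at 16.8, 17.8 and 14.5 in BL/6J:NZB pools and 3.61, 9.26 and 10.2 in BL/6J:C57 pools; and Lmbrd2, a membrane protein, at 43.9, 46.5 and 37 in BL/6J:NZB pools and 9.95, 26.4 and 33.5 in BL/6J:C57 pools. The 10 lowest were 8 members of the acute phase list, Nfkbiz and Lsm7. Lsm7, a subunit of the LSM ring that binds U6 RNA, stood at 0, 16.2 and 7.63 in BL/6J:NZB pools and 29.95, 23 and 16.7 in BL/6J:C57 pools, with 16.3% of its words in another gene.

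Outside that rule and chosen after their values were seen, 2 genes stood apart. Dynlt1b, one of several nearly identical dynein light chain genes, was listed at 0 in all BL/6J:NZB pools and at 1.59, 0.837 and 0.876 in BL/6J:C57 pools; it was the other gene that edgeR called (adjusted p = 0.0274), while limma did not (adjusted p = 0.105). Reads of its copies may be divided among them. Dmbt1, a secreted scavenger receptor of epithelia, stood at 1.12, 22.3 and 14.5 in BL/6J:NZB pools and 0.44, 0.112 and 0.279 in BL/6J:C57 pools (log2 fold change 2.85, adjusted p = 0.222), with pools 2 and 3 of BL/6J:NZB high and pool 1 near the BL/6J:C57 pools.

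The lists of constitutive secretory genes of the hepatocyte had slightly negative median log2 fold changes. Of 33 complement and coagulation genes, 9 had every BL/6J:NZB pool below every BL/6J:C57 pool and 0 above, with a median log2 fold change of -0.16. Their medians per pool, as differences from the mean of the 6 livers, were -0.08, -0.04 and -0.07 in BL/6J:NZB pools. In BL/6J:C57 pools they were -0.11, 0.12 and 0.18, so BL/6J:C57 pool 1 was the lowest of all 6. Without BL/6J:C57 pool 1 the count was 23, beside 11.0% of all genes, and the median -0.19. Without pool 2 or 3 the count was 9 or 11, beside 11.1% or 18.6% of all genes, and the median -0.11 or -0.14. Without pool 3, 3 stood above, beside 17.1% of all genes. Mbl2, a mannose-binding lectin, stood at 268, 272 and 284 in BL/6J:NZB pools and 333, 352 and 333 in BL/6J:C57 pools (log2 fold change -0.30, SE 0.07, adjusted p = 0.222, limma; DESeq2 adjusted p = 0.0067). The spread within each group was small beside this difference. Kng1, kininogen 1, stood at 2238, 2033 and 2169.6 in BL/6J:NZB pools and 2638, 2676 and 2734 in BL/6J:C57 pools, F10, coagulation factor X, at 316, 339 and 394 in BL/6J:NZB pools and 412, 421 and 421 in BL/6J:C57 pools, and C2, complement component 2, at 428, 332 and 369 in BL/6J:NZB pools and 684, 552 and 426 in BL/6J:C57 pools. C2 overlapped through BL/6J:C57 pool 3, and it shares 40.8% of its words with a predicted gene.

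Of 21 apolipoprotein genes, 6 stood below without overlap and 0 above, with a median of -0.19 that was -0.20, -0.21 and -0.21 without BL/6J:C57 pool 1, 2 or 3. Apon, apolipoprotein N, stood at 347, 314 and 315 in BL/6J:NZB pools and 479.6, 469.8 and 411 in BL/6J:C57 pools (log2 fold change -0.48, SE 0.11, adjusted p = 0.222). Apof, which regulates the exchange of cholesteryl esters between lipoproteins, stood at 726, 714 and 769 in BL/6J:NZB pools and 950.4, 889 and 922 in BL/6J:C57 pools. Lcat, which esterifies plasma cholesterol, stood at 291, 341 and 337 in BL/6J:NZB pools and 388, 425 and 383 in BL/6J:C57 pools. Apoc2, the cofactor of lipoprotein lipase, stood at 144, 129 and 156 in BL/6J:NZB pools and 195, 191 and 156 in BL/6J:C57 pools, with 78.8% of its words in an annotated read-through gene. The groups did not overlap for these 4 genes, although at Apoc2 BL/6J:C57 pool 3 was level with the highest BL/6J:NZB pool. DESeq2 called Apon (adjusted p = 0.0288) and Apof (adjusted p = 0.0166). Of 19 iron genes, 6 stood below and 2 above without overlap, with a median of -0.16. Beside Hpx, Cp, ceruloplasmin, stood at 1992, 1803 and 1655 in BL/6J:NZB pools and 2009, 3393 and 2552 in BL/6J:C57 pools, and Bmp6, the endothelial signal that induces hepcidin, was above at 2.71, 3.44 and 1.8 in BL/6J:NZB pools and 1.23, 1.56 and 1.11 in BL/6J:C57 pools. Smad7, an inhibitor of that signal, stood at 9.61, 13.2 and 12.7 in BL/6J:NZB pools and 7.93, 7.47 and 8.68 in BL/6J:C57 pools. Hpx and Cp are also in the acute phase list.

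Metabolic genes differed little, with lipogenesis the list that had most members above. Of its 23 members tested, 6 had every BL/6J:NZB pool above every BL/6J:C57 pool, beside 5.08% of all genes, 0 had them below, and the median log2 fold change was 0.18. With BL/6J:C57 pool 3 left out it was 8 above and 3 below, beside 17.1% and 18.6% of all genes, and the median 0.13. Scd1, the desaturase that makes oleate, stood at 5624, 7328 and 6118 in BL/6J:NZB pools and 3211, 5033 and 4029.7 in BL/6J:C57 pools (log2 fold change 0.65, SE 0.16, adjusted p = 0.222, limma; DESeq2 adjusted p = 0.0067). Acly, which makes cytosolic acetyl-CoA from citrate, stood at 317, 345 and 294 in BL/6J:NZB pools and 183, 270.2 and 257 in BL/6J:C57 pools, and Gpam, the mitochondrial enzyme that starts triglyceride synthesis, at 173, 198 and 159 in BL/6J:NZB pools and 48.9, 136 and 138 in BL/6J:C57 pools. BL/6J:C57 pool 1 was the lowest of all 6 for each of these genes. Acacb, the acetyl-CoA carboxylase of the mitochondrial surface, stood at 128, 175 and 110.2 in BL/6J:NZB pools and 94, 116 and 81.3 in BL/6J:C57 pools, with overlap.

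In the other metabolic lists no median lay farther than 0.08 from 0 with all pools, or than 0.12 without any 1 BL/6J:C57 pool. With all pools it was 0.01 for 32 fatty acid oxidation and PPAR alpha genes, -0.03 for 24 cholesterol genes, -0.01 for 21 bile acid genes, -0.04 for 23 glycolysis and gluconeogenesis genes, -0.08 for 27 amino acid and urea genes and -0.02 for 20 citric acid cycle genes. Pdk1, a kinase that shuts the pyruvate dehydrogenase complex, stood at 91.4, 100.2 and 95.4 in BL/6J:NZB pools and 65, 60.4 and 77.7 in BL/6J:C57 pools (log2 fold change 0.50, SE 0.11, adjusted p = 0.222); DESeq2 called it (adjusted p = 0.0101). Ldha, lactate dehydrogenase A, stood at 784, 768 and 770.2 in BL/6J:NZB pools and 855, 1092 and 1027 in BL/6J:C57 pools. Acot4, a peroxisomal thioesterase, stood at 14.6, 19.2 and 13.9 in BL/6J:NZB pools and 11.5, 10.4 and 11.8 in BL/6J:C57 pools. Oat, ornithine aminotransferase of pericentral hepatocytes, stood at 515, 489.5 and 671 in BL/6J:NZB pools and 725, 732 and 885 in BL/6J:C57 pools, and Asl, of the urea cycle, at 379, 422 and 411 in BL/6J:NZB pools and 605, 501 and 423 in BL/6J:C57 pools. Fh1, the fumarase, stood at 221, 219 and 229 in BL/6J:NZB pools and 284, 290.4 and 254 in BL/6J:C57 pools. Slco1a1, a bile salt and steroid uptake transporter, stood at 670.3, 628 and 617 in BL/6J:NZB pools and 346, 362 and 602 in BL/6J:C57 pools; BL/6J:C57 pool 3 was close to the BL/6J:NZB pools, and without it the adjusted p was 0.0067. Abcc2, the canalicular exporter of bilirubin conjugates, was low in BL/6J:C57 pools 1 and 2 as well, at 319, 351 and 350.1 in BL/6J:NZB pools and 186, 237 and 348 in BL/6J:C57 pools.

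The nuclear genes of the respiratory chain, whose products meet the mtDNA-encoded subunits, did not pass limma's test in any case. Of 37 complex I genes, 2 had every BL/6J:NZB pool below every BL/6J:C57 pool, beside 6.97% of all genes, and of 13 complex II and III, 13 complex IV and 15 ATP synthase genes, 1, 0 and 0 did. None had every BL/6J:NZB pool above. The medians were -0.17 for complex I, -0.11 for complexes II and III, -0.20 for complex IV and -0.17 for ATP synthase, and without BL/6J:C57 pool 1 they were -0.04, -0.02, -0.08 and -0.04. Without BL/6J:C57 pool 3 they were -0.28, -0.14, -0.31 and -0.24, and the counts below without overlap were 20 of 37 for complex I, 3 of 13 for complexes II and III, 6 of 13 for complex IV and 6 of 15 for ATP synthase, beside 18.6% of all genes, with 1, 2, 0 and 2 above, beside 17.1%. In that fit, too, limma called 0 of them. BL/6J:C57 pool 1 had medians of 0.34, 0.20, 0.38 and 0.33 above the mean of the 6 livers, while the other BL/6J:C57 pools lay between -0.13 and 0.04. Ndufa9, an accessory subunit of complex I, stood at 151, 144 and 153 in BL/6J:NZB pools and 197, 155 and 172 in BL/6J:C57 pools (log2 fold change -0.22, SE 0.10, adjusted p = 0.495, limma). Ndufa1, an accessory subunit needed for complex I assembly, stood at 85.7, 75 and 89.3 in BL/6J:NZB pools and 122, 103 and 86.3 in BL/6J:C57 pools. Ndufv3, of the NADH-oxidising module, stood at 91.5, 78.9 and 94.1 in BL/6J:NZB pools and 144, 106 and 93.6 in BL/6J:C57 pools, and Ndufa8 at 88.1, 82.8 and 101 in BL/6J:NZB pools and 136, 104 and 94.4 in BL/6J:C57 pools. The differences in Ndufa1, Ndufv3 and Ndufa8 rest on BL/6J:C57 pools 1 and 2, since pool 3 lay within the range of BL/6J:NZB pools. Cox7c, a small subunit of cytochrome c oxidase, stood at 108, 83.5 and 117 in BL/6J:NZB pools and 226, 136 and 89.7 in BL/6J:C57 pools, and Atp5g1, of the rotor of ATP synthase, at 165, 170.5 and 192 in BL/6J:NZB pools and 274, 212 and 168 in BL/6J:C57 pools; 24.5% and 13.9% of their words occur in pseudogenes. Sdha, the flavoprotein of complex II, stood at 662, 715 and 682 in BL/6J:NZB pools and 515, 557 and 767 in BL/6J:C57 pools, where pool 3 was the highest of the 6 and pools 1 and 2 the lowest. The median transcript length of the genes tested was 1046 bases for complex I and 709 for complex IV.

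The mitochondrial ribosome, which translates the mtDNA-encoded mRNAs, had more members apart. Of 76 genes tested, 17 had every BL/6J:NZB pool below every BL/6J:C57 pool and 0 above, beside 6.97% and 5.08% of all genes, with 12 lower and 0 higher at an unadjusted p under 0.05. By limma and by DESeq2, 0 passed. The median was -0.17, and -0.09 without BL/6J:C57 pool 1, when the count was also 17, beside 11.0% of all genes. Without pool 2 the count was 25, beside 11.1% of all genes, and the median -0.19, and without pool 3 it was 37, beside 18.6%, and the median -0.24. Mrps18b, of the small subunit, stood at 54.9, 55.3 and 58.4 in BL/6J:NZB pools and 78.8, 66.1 and 65.6 in BL/6J:C57 pools (log2 fold change -0.31, SE 0.09, adjusted p = 0.333, limma). Mrps17 stood at 41, 40.04 and 39.6 in BL/6J:NZB pools and 53.1, 45 and 44 in BL/6J:C57 pools, and Mrpl35, of the large subunit, at 33.3, 31 and 29.9 in BL/6J:NZB pools and 41.8, 34 and 38.4 in BL/6J:C57 pools. Mrpl37, of the large subunit too, stood at 41.8, 44.3 and 46.7 in BL/6J:NZB pools and 55, 49.8 and 49.7 in BL/6J:C57 pools. BL/6J:C57 pool 1 was the highest of all 6 for these 4 genes. The cytosolic ribosome, whose genes are short too, had a median of -0.14 over 56 genes, or -0.04 without BL/6J:C57 pool 1, and 1 gene below and 1 above without overlap. When BL/6J:C57 pool 3 was left out, its median was -0.25 and 28 of the 56 stood below, beside 18.6% of all genes. In that fit limma called 3 of the 56, all lower, beside 0.784% of all genes. For 25 genes of mtDNA replication, transcription and RNA processing, the median was -0.01 and 0 were apart in either direction. Without BL/6J:C57 pool 3 it was 6 above and 1 below, beside 17.1% and 18.6% of all genes. The medians per pool of these 25 genes lay between -0.06 and 0.08. Among them, Gabpa, which with its partner drives many nuclear mitochondrial genes, stood at 66.5, 69.6 and 63.3 in BL/6J:NZB pools and 48.4, 54.8 and 65.6 in BL/6J:C57 pools, and Ppargc1b, a co-activator of mitochondrial biogenesis, at 3.26, 5.33 and 6.33 in BL/6J:NZB pools and 2.2, 3.74 and 3.58 in BL/6J:C57 pools.

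Over 20 genes that answer mitochondrial stress, the median log2 fold change was -0.10, with 0 apart in either direction. Without BL/6J:C57 pool 3 it was 3 above and 5 below, beside 17.1% and 18.6% of all genes. With all pools, 4 were lower and 0 higher at an unadjusted p under 0.05 by limma. Gdf15, a circulating stress signal, stood at 2.61, 5.5 and 3.6 in BL/6J:NZB pools and 12.8, 8.87 and 4.22 in BL/6J:C57 pools (log2 fold change -0.91, SE 0.36, adjusted p = 0.46, limma). Ddit3, the transcription factor CHOP, stood at 6.72, 8.25 and 8.42 in BL/6J:NZB pools and 12.9, 14.1 and 7.44 in BL/6J:C57 pools. Atf3, another stress-induced transcription factor, stood at 1.87, 1.2 and 0.936 in BL/6J:NZB pools and 2.47, 3.74 and 1.47 in BL/6J:C57 pools, and Clpp, a protease of the mitochondrial matrix, at 41.7, 47.7 and 50.03 in BL/6J:NZB pools and 71.2, 56.6 and 46.3 in BL/6J:C57 pools. Each overlapped through BL/6J:C57 pool 3, and Ddit3 was called lower without it (adjusted p = 0.0402). Of 26 antioxidant genes, 4 stood below and 2 above without overlap, with a median of -0.13. Without BL/6J:C57 pool 3 it was 10 below and 3 above, beside 18.6% and 17.1% of all genes, and the median -0.11. Gsta1, a glutathione transferase that shares 92.9% of its words with Gsta2, stood at 13.2, 13.2 and 9.65 in BL/6J:NZB pools and 15.3, 22.8 and 22.4 in BL/6J:C57 pools. Gpx4, which reduces lipid peroxides, stood at 249.9, 231 and 271 in BL/6J:NZB pools and 329, 316 and 272 in BL/6J:C57 pools, with 38.9% of its words in a pseudogene. Gclc, the catalytic subunit of the rate-limiting enzyme of glutathione synthesis, stood above at 691, 719.9 and 610.1 in BL/6J:NZB pools and 544, 480.2 and 597 in BL/6J:C57 pools. Txn1, thioredoxin, was lower on average in BL/6J:NZB pools, at 278, 245 and 270.1 against 402, 311 and 277 in BL/6J:C57 pools, with overlap.

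The remaining lists had 0 members called by limma over all genes. Of 37 interferon-induced genes tested, 4 stood below and 1 above without overlap, with a median of -0.06, while without BL/6J:C57 pool 3 it was 7 below and 15 above, beside 18.6% and 17.1% of all genes, and the median turned to 0.09. Psmb8, of the immunoproteasome, stood at 32.7, 31.7 and 36.9 in BL/6J:NZB pools and 39.99, 39 and 41 in BL/6J:C57 pools. Of 14 MHC genes, 2 stood below and 2 above; H2-D1, a class I molecule, stood at 594, 622 and 656 in BL/6J:NZB pools and 796, 787 and 662 in BL/6J:C57 pools, with 26.7% of its words in H2-K1. Of 18 growth hormone and IGF genes, 3 stood above and 1 below; Irs1, the insulin receptor substrate, stood at 20.9, 26.7 and 18.7 in BL/6J:NZB pools and 13.3, 11.1 and 17.7 in BL/6J:C57 pools. Of 19 clock genes, 1 stood above without overlap, Rora, at 128, 119 and 101 in BL/6J:NZB pools and 69.8, 85.8 and 87.8 in BL/6J:C57 pools (log2 fold change 0.51, SE 0.12, adjusted p = 0.222). Per1, a clock gene that stress hormones also induce, stood at 1.77, 1.8 and 4.97 in BL/6J:NZB pools and 3.79, 16.7 and 2.59 in BL/6J:C57 pools, with pool 2 of BL/6J:C57 the highest. Igfbp3, an IGF carrier, stood at 23, 21.8 and 18.6 in BL/6J:NZB pools and 15.5, 15.9 and 9.67 in BL/6J:C57 pools, and Igfbp4, another, at 987, 1075 and 1231 in BL/6J:NZB pools and 1239.7, 1304 and 1300.5 in BL/6J:C57 pools. Nr1h4, the bile acid receptor FXR, stood at 98.2, 103 and 108 in BL/6J:NZB pools and 138, 113 and 130.4 in BL/6J:C57 pools, and Pck1, of gluconeogenesis, at 898, 1292 and 1252 in BL/6J:NZB pools and 1401, 2046 and 1496 in BL/6J:C57 pools. These 4 genes did not overlap between groups, and their adjusted p lay between 0.44 and 0.523. The male-biased list had a median of -0.12, the female-biased list 0, the xenobiotic list -0.01, the cell cycle list -0.04, the periportal list -0.08, and the pericentral and hepatocyte lists -0.14 each. The 8 bile duct markers had a median of -0.07, with 2 below and 0 above without overlap. Without BL/6J:C57 pool 1, 2 or 3 that median was 0.06, -0.03 or -0.18. Among them, Spp1, osteopontin, stood at 66.5, 45.7 and 49.2 in BL/6J:NZB pools and 77.7, 108 and 83.4 in BL/6J:C57 pools (log2 fold change -0.73, SE 0.15, adjusted p = 0.173, limma; DESeq2 adjusted p = 0.0044). Lymphocyte markers had a median of -0.04, and Igkc, the kappa light chain of antibodies, stood at 2.43, 1.8 and 1.73 in BL/6J:NZB pools and 3.44, 3.4 and 2.43 in BL/6J:C57 pools. The 5 red cell genes tested had a median of 0.15 and were lowest in BL/6J:C57 pool 2, with a median deviation of -0.61 there. Of 8 names each for fat and pancreas, 2 and 1 were tested, with medians of 0.15 and 0.20.

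With BL/6J:C57 pool 3 left out, limma called 196 of 13145 genes (1.49%), 93 higher (0.707%) and 103 lower (0.784%) in BL/6J:NZB pools. Leaving out any other single pool gave 1 to 3 calls. Of the 196 genes, pool 3 lay within the range of the BL/6J:NZB pools for 76, on the side of the other BL/6J:C57 pools for 78, and beyond the BL/6J:NZB pools for 42. DESeq2 called 84 of 12895 genes with all pools (0.651%), and 39 of these were among the 196. The highest of the 196 by the rule for named genes, beside Rnf125, Colec10, Foxn3 and Lmbrd2, were 6 genes, of which 5 are given here; BL/6J:C57 pool 1 was the lowest of all 6 livers for each. Fzd4, a Wnt receptor, stood at 20.2, 18.2 and 19 in BL/6J:NZB pools and 6.96, 9.04 and 14.8 in BL/6J:C57 pools, with a log2 fold change of 1.17 without pool 3 (adjusted p = 0.0258) and 0.90 with it (adjusted p = 0.229). Abca6, a lipid transporter of the ABC family, stood at 226, 250.2 and 256 in BL/6J:NZB pools and 89.5, 156 and 234 in BL/6J:C57 pools. Pdpr, a regulatory subunit of the pyruvate dehydrogenase phosphatase of mitochondria, stood at 27.1, 30.2 and 25.8 in BL/6J:NZB pools and 7.84, 17.1 and 23.4 in BL/6J:C57 pools. Exph5, a Rab27 effector, stood at 18.5, 22.9 and 17.4 in BL/6J:NZB pools and 8.63, 9.15 and 19.9 in BL/6J:C57 pools, and Zfp871, a zinc finger gene, at 34.3, 31.6 and 30.02 in BL/6J:NZB pools and 10.7, 20.1 and 23.2 in BL/6J:C57 pools. Zfp871 and Pdpr did not overlap between groups, while Abca6 and Exph5 did through BL/6J:C57 pool 3. The lowest 10 were Cxcl1, Orm3, Tnfaip3, Nfkbiz, Icam1, Junb, Hspa1b and Bcl3, given above, and 2 more. Lrg1, a leucine-rich acute phase glycoprotein, stood at 465, 465 and 470.2 in BL/6J:NZB pools and 891, 1310.1 and 641 in BL/6J:C57 pools, and Rpl28, of the cytosolic ribosome, at 36.6, 31.5 and 34.6 in BL/6J:NZB pools and 122, 71 and 21 in BL/6J:C57 pools. Lrg1 was evenly low in BL/6J:NZB pools, with no overlap, while for Rpl28 pool 3 was below them, and without BL/6J:C57 pools 1 and 2 its log2 fold change was 0.68 against -0.72 with all pools.

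**Figure D5:**
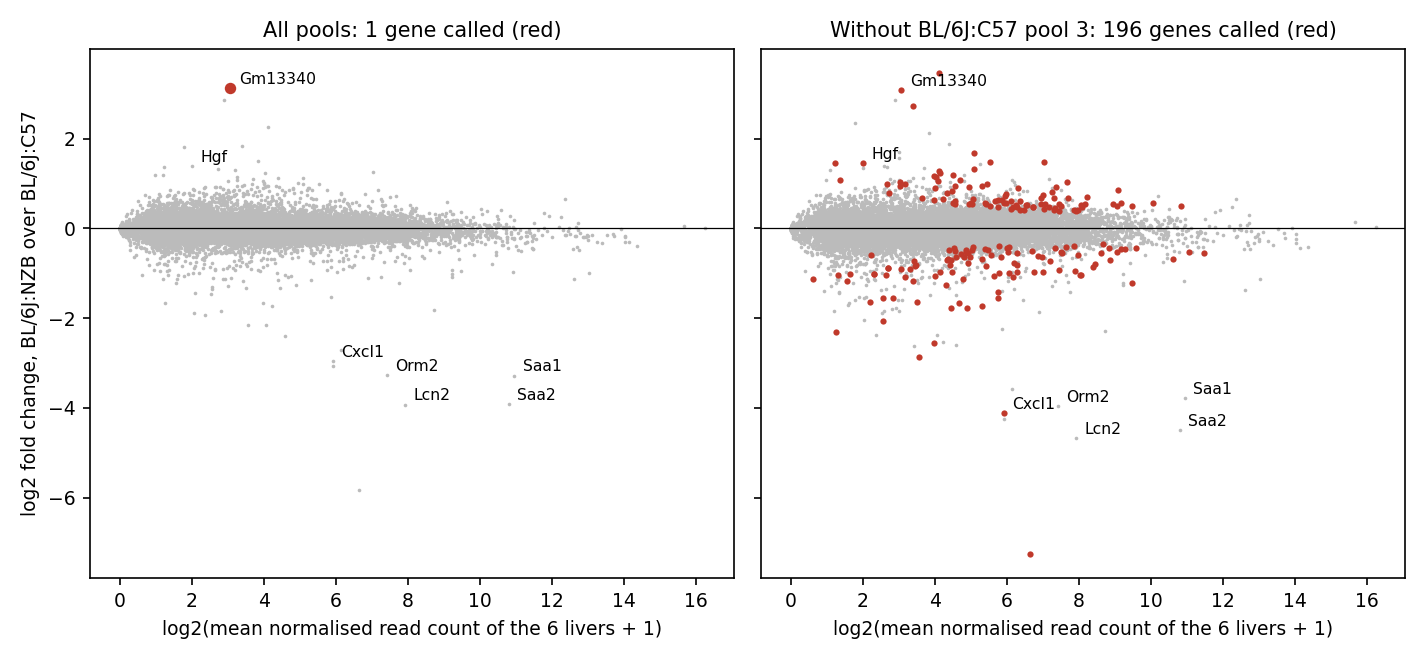
Each point is a gene tested: log2 of its mean normalised read count over the 6 livers plus 1 (x axis) against its log2 fold change, BL/6J:NZB over BL/6J:C57 (y axis), with genes called by limma in red. With all pools (left) 1 gene is called, and without BL/6J:C57 pool 3 (right) 196 are, while the acute phase genes Lcn2, Saa1, Saa2 and Orm2 lie far below 0 without a call in either.

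Whether the liver differed from the heart in its response was tested in 1 fit over all 24 libraries, as the liver difference minus the heart difference between BL/6J:NZB and BL/6J:C57. Of 14968 genes, 11 passed (0.0735%). In the hearts alone, 129 of 13803 genes were called between the same genotypes (0.935%). For 8 of the 11 genes the liver difference was the more positive. Ednra, the endothelin A receptor of smooth muscle and stellate cells, stood at 4.76, 4.55 and 3.67 in BL/6J:NZB livers and 2.11, 1.78 and 1.75 in BL/6J:C57 livers, and at 22.2, 24.3 and 23.6 in BL/6J:NZB hearts and 41.2, 30.2 and 27.2 in BL/6J:C57 hearts (difference of log2 fold changes 1.34, SE 0.23, adjusted p = 0.0379, limma). Lbh, a transcriptional regulator known from limb and heart, stood at 9.33, 9.11 and 8.71 in BL/6J:NZB livers and 6.61, 5.08 and 4.62 in BL/6J:C57 livers, and at 453, 491 and 477 in BL/6J:NZB hearts and 577, 539.9 and 635 in BL/6J:C57 hearts (difference 0.95, adjusted p = 0.0268). Ntn1, netrin 1, stood at 9.33, 7.3 and 8.49 in BL/6J:NZB livers and 4.32, 4.74 and 3.38 in BL/6J:C57 livers (difference from the heart 1.18, adjusted p = 0.0379). Itga9, an integrin subunit, stood at 22.1, 18.2 and 12.9 in BL/6J:NZB livers and 9.07, 11.1 and 8.12 in BL/6J:C57 livers (difference 1.21, adjusted p = 0.042). In each of these 4 genes the liver groups did not overlap, with BL/6J:NZB above, and the BL/6J:NZB heart pools all stood below the BL/6J:C57 heart pools. Myom3, a sarcomere M-band protein, went the other way: it stood at 0.56, 0.602 and 0.864 in BL/6J:NZB livers and 1.94, 3.07 and 1.79 in BL/6J:C57 livers, and at 4.62, 4.29 and 3.51 in BL/6J:NZB hearts and 2.73, 2.7 and 2.96 in BL/6J:C57 hearts (difference -1.38, adjusted p = 0.042). This count rests on single libraries. Leaving out BL/6J:C57 liver pool 3 gave 1053 genes, and leaving out BL/6J:NZB liver pool 3 or BL/6J:C57 liver pool 1 gave 61 and 18. Leaving out BL/6J:NZB liver pool 1 or 2, BL/6J:C57 liver pool 2 or any 1 heart pool gave 0 to 5, and a fit on the 12 libraries of both genotypes alone gave 0, against 14 by edgeR and 431 by DESeq2 on the recovered reads of all 24. Whether the same animals gave a genotype's liver and heart pools is not stated, and the fit took the libraries as independent. Among the hearts in the fit on 24 libraries, the top 20 genes held 33.4% to 34.1% of reads in NZB:C57 pools. In the other heart pools they held 11.5% to 14.5%, and the part of this in the spread was not tested.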

How the data were processed

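PolyA RNA of pooled livers and hearts was sequenced on an Illumina Genome Analyzer IIx, per the labels' protocols. Per the submitters' processing notes, cutadapt 1.2.1, RSEM 1.2.3, Bowtie2 2.0.6, edgeR and GRCm38 were used; their roles are not given here. The deposited table holds 15323 genes in 24 libraries, and no header states its unit. The deposited values are a normalised signal: in each library every value, within 0.01 reads, is a whole multiple of 1 constant, so whole reads were recovered for 100.0% of values. The deposited values therefore correspond to whole read counts times 1 factor per library, whose derivation is not given here. Recovered reads ran from 14225044 to 34974268 in the 6 livers. Symbols were matched to GENCODE vM21 (GRCm38) for 15116 gene IDs (98.65%). Values of 55 genes equalled another gene's in every library.

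Because the values are not raw counts, the test was limma 3.58.1 (R 4.3.3) with a mean-dependent prior on log2(value + 1) over the 12 livers of 4 genotypes, which share 1 estimate of the spread, for genes that reached a value of 1 in 3 or more of them; the planned design had allowed for raw counts. p-values were adjusted by Benjamini-Hochberg and called under 0.05. Alternatives were edgeR 4.0.16 (quasi-likelihood) and DESeq2 1.42.0 on the recovered reads, other scalings, pseudocounts and filters, array weights, a replicate block, fewer libraries and each pool left out. The scripts were tested on simulated data. The members and the gene lists were chosen with earlier results of these data known. Named genes were those called, the 10 highest and 10 lowest fold changes among genes without overlap and a mean of at least 10 (predicted genes and pseudogenes left out), up to 4 per list by smallest p, the 10 highest and 10 lowest called with a pool left out, the 5 smallest p of liver minus heart, and Nnt, Mmrn1, Cox7a2l and Gm13340; some genes that the rule names are not reported here. Shared sequence is the percent of a transcript's 31-base words that occur in another gene. Labels do not say which animals are in which pool.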

Additional observations from a re-analysis of the deposited data

Results flagged for a closer look

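In 11 genes the difference between BL/6J:NZB and BL/6J:C57 in liver departed from that in heart in a test of the difference itself (limma, 24 libraries in 1 fit, difference of log2 fold changes, liver minus heart). It was 0.95 for Lbh, 1.18 for Ntn1, 1.34 for Ednra and 1.21 for Itga9. It was 1.2 for Grk5, a kinase of G protein-coupled receptors, whose liver values were 16.3, 14.3 and 9.5 in BL/6J:NZB pools and 7.05, 6.75 and 5.06 in BL/6J:C57 pools. Adcy5, an adenylyl cyclase, had 1.07, with 2.61, 2.75 and 2.16 in BL/6J:NZB livers and 1.5, 1.17 and 0.796 in BL/6J:C57 livers. Plxnc1 had 1.19. C7, complement component 7, had 1.27 and was too low for the liver test, at 0.653, 0.516 and 0.864 in BL/6J:NZB livers and 0.176, 0.223 and 0.159 in BL/6J:C57 livers. Below 0 stood Myom3 with -1.38, Gas5 with -0.79 and Gm13340 with -2.16. Gas5, a host gene of small nucleolar RNAs, had 82.5, 67.1 and 78.8 in BL/6J:NZB livers and 107, 84.7 and 83.5 in BL/6J:C57 livers, and 37.3, 35.7 and 41.9 in BL/6J:NZB hearts and 24.2, 28.9 and 25.5 in BL/6J:C57 hearts. Gm13340 rose in both tissues, by log2 fold changes of 3.13 in liver and 5.29 in heart. Its BL/6J:C57 means were 0.564 in liver and 1.33 in heart, near the 1 that is added before the logarithm. How far this shaped its difference, or that of other genes low in liver such as Myom3, Adcy5 and C7, was not tested. The number of genes that passed the test of liver minus heart depended strongly on the libraries, as given in the next section.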

How the results depend on the processing

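The 1 gene called with NZB mtDNA in liver, Gm13340, compares with 2 by edgeR, 84 by DESeq2 (52 higher, 32 lower), 2 with a pseudocount of 0.5, 0 with a pseudocount of 5, 23 with array weights, and 6 without BL/6J:C57 pools 1 and 2, an alternative chosen after seeing the data. A replicate block gave 7 genes, and 0 in the 6 livers alone. Same-numbered liver pools of the 2 genotypes correlated at 0.05, 0.06 and -0.03, and pools of different numbers at -0.17 to 0.11. With 3 pools per group this cannot decide whether same-numbered pools share more than a number. Leaving out 1 pool gave 1 to 196 genes, with 196 without BL/6J:C57 pool 3; with 2 pools in a group, its spread is taken from all livers. At an unadjusted p under 0.05, limma had 1284 genes.

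Liver minus heart gave 11 genes, against 56 with library totals, 431 by DESeq2, 5 and 28 with pseudocounts of 0.5 and 5, 1637 with array weights, 0 with only the 12 BL/6J libraries, and 0 to 1053 leaving out 1 pool. A replicate block gave 11. The count of nuclear background genes above 0.5 was 1 in each setting tried. The causes of these shifts were not tested.

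Of 858 values for 43 genes, 793 kept direction and call, 54 gained a call, 3 lost one and 8 turned. The 3 lost were Gm13340's, at 1.69 with a pseudocount of 5, 3.13 in the 6 livers with a block and 3.25 without BL/6J:C57 pools 1 and 2. Without those 2 pools, log2 fold changes turned to 0.31 for Bcl3, -0.06 for Cox7a2l, -0.03 for Exph5, 0.1 for Hspa1b, 0.03 for Junb, 0.68 for Rpl28 and 0.14 for Tnfaip3; without pool 2 alone Cox7a2l stood at -0.01. With library totals the median of all genes was 0.07. Limits are the 3 pools per group, the spread among BL/6J:C57 pools, and depth at low genes such as Gm13340, whose 3 BL/6J:C57 pools held 30 reads together.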

Other observations

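Gm4737, a predicted gene that the naming rule leaves out and that was chosen after its values were seen, had the most negative log2 fold change given here. It stood at 0, 0 and 2.23 in BL/6J:NZB pools, against 471, 106 and 10.9 in BL/6J:C57 pools (log2 fold change -5.84, SE 1.16, adjusted p = 0.164, limma). All BL/6J:C57 pools were above all BL/6J:NZB pools, and the values within the BL/6J:C57 group differed widely. Without BL/6J:C57 pool 3 the log2 fold change was -7.25 (adjusted p = 0.0155).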
